A study of Mus musculus with 4 samples.

Results

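The genes described here build and use the microtubule cytoskeleton: tubulins, microtubule-associated proteins (MAPs), kinesins, cytoplasmic dynein with its light chains, and dynactin. They were selected by symbol from the annotation of the array, as symbols beginning Tuba, Tubb or Tubg with a digit, Kif with a digit, Klc1 to Klc4, Dync, Dynl or Dctn1 to Dctn6, together with Map1a, Map1b, Map2, Map4, Map6, Mapt and Dcx. The selection holds 87 of the 24185 gene symbols on the array, carried by 132 probes of 60 bases. Of these, 18 were tubulins, 7 were MAPs and 62 were motor subunits. The pattern also took in the pseudogenes Tubb2a-ps2 and Kif4-ps.

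Microtubules are hollow polymers of alpha- and beta-tubulin dimers, and gamma-tubulin serves in the complexes that start them. In neurons they carry long-range transport, with most kinesins walking toward the plus end and cytoplasmic dynein, helped by dynactin, toward the minus end. MAPs such as tau, which sits mainly in axons, and MAP2, which sits mainly in dendrites, bind along the polymer. The cytoplasmic polyadenylation element (CPE) is a short U-rich motif near the 3' end of many mRNAs. Proteins that attach to it, CPEB2 among them, set the length of the poly(A) tail or the rate of translation.

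RNA immunoprecipitation (RIP) recovers the RNA that comes down with an antibody. Brain lysate, made from cortex and hippocampus of male C57BL/6 mice aged 8 weeks, was incubated with beads carrying CPEB2 IgG or control IgG, and the RNA from each was hybridised to its own one-color array, 2 arrays for each antibody. Each lysate was split over both antibodies, which pairs the 4 arrays into experiment 1 and experiment 2, and no genotype or treatment separated the groups. The control was mouse IgG. The number of mice behind a lysate is not given in the sources used here, so the p-values measure only the spread between these arrays. The labels disagree in 1 place: a description of the samples grouped here as CPEB2 IgG reads CPEB3 IgG, while titles and protocol read CPEB2. Both antibodies of an experiment met the same lysate of whole tissue, in which the number of cells of a type and the RNA per cell cannot be told apart. RNA of the starting lysate is not analysed here.

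No spot was saturated, and the share well above background ran from 68.4% to 74.1% over the 4 arrays, which lay on 1 slide. Array position and antibody cannot be told apart. Signals are background-subtracted intensities in arbitrary units, given here before scaling. Fold changes are CPEB2 IgG minus control IgG on the log2 scale after scaling by the 75th percentile of the array, so "higher" and "lower" are relative to the other probes of the array. The test was limma with the experiment as a block, fitted to the brightest probe of 19698 genes, with adjusted p-values over all of them and a threshold of 0.05. An exact two-sided permutation test of 2 arrays against 2 that ignores the pairing cannot go below p = 0.333. One that keeps the pairs has fewer arrangements, so its limit is higher. Among the 6 neuronal markers the summed signal ranged from 62887 to 68013 with CPEB2 IgG and from 115839 to 125601 with control IgG, with Nefl (log2 fold change -1.84) and Syn1 (-1.81) called lower and the other 4 not called. The 4 oligodendrocyte markers summed to between 55324 and 57250 and between 46649 and 61897, with 1 called lower. The 4 astrocyte markers summed to between 29288 and 31599 and between 14377 and 18918. That sum was carried by Slc1a3, which was called higher (3.44), whereas Aldh1l1 (-3.77) and Gfap (-0.90) were called lower and the median of the 4 was -0.16. The 4 microglial markers summed to between 6293 and 7195 and between 9882 and 11731, with 1 called higher and 2 lower. The part of cell type in the results below was not tested.

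Over the whole selection recovery with CPEB2 IgG lay lower than over all genes tested, and the tubulins stood furthest down. Not all roles shared this, with medians of -0.16 over the 31 kinesin heavy chains tested and 0.52 over the 7 MAPs. Of the 87 genes, 80 passed the filter on dim probes and were tested. limma called 36 of these 80 lower (45.0%), where 20.4% of all genes tested were called lower. It called 8 of them higher (10%), where 21.2% of all genes were called higher. The median log2 fold change was -0.80 over the 80 genes and -0.11 over all genes tested. The 8 higher genes were 3 MAPs and 5 kinesin heavy chains, of which Kif23 passed the filter only through its CPEB2 IgG arrays, and no tubulin, kinesin light chain, dynein or dynactin gene was called higher.

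**Figure D1:**
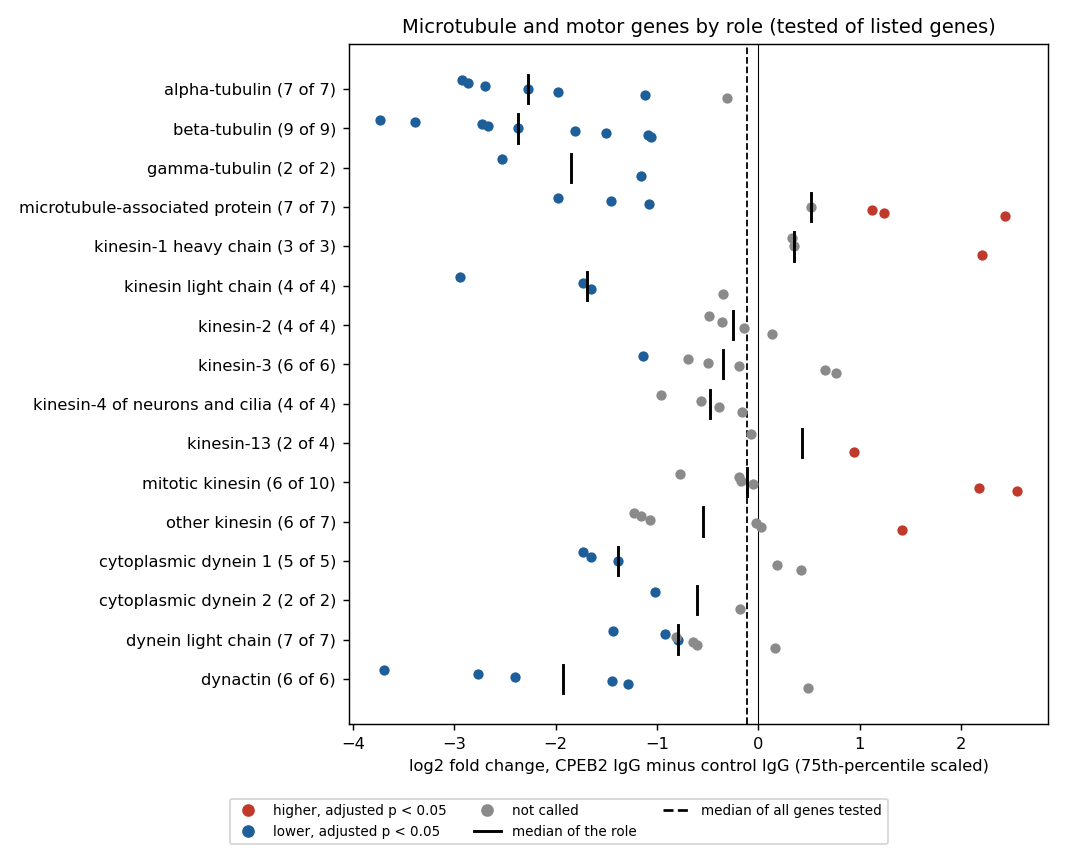
Log2 fold change (CPEB2 IgG minus control IgG, horizontal axis) of each tested gene, 1 point per gene, by role on the vertical axis with the number tested of the number listed. Short black bars are medians of a role, the dashed line is the median of all 19698 genes tested (-0.11), and colours give limma's call at 0.05. Tubulins, kinesin light chains and dynactin lie mostly to the left, and the 8 genes called higher are MAPs and kinesin heavy chains.

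The 7 alpha-tubulin genes encode 1 subunit of the tubulin dimer. limma called 6 of them lower, with a median log2 fold change of -2.27 and a range from -2.92 to -0.30. For Tuba1a, the main alpha-tubulin of developing neurons, the signals were 14243 and 16319 with CPEB2 IgG against 112867 and 93276 with control IgG. Tuba1b, which is expressed in most cells, gave 38754 and 34147 with CPEB2 IgG against 190716 and 173570 with control IgG. Tuba4a read 9225 and 9907 with CPEB2 IgG against 69963 and 74408 with control IgG. In each of these genes both control IgG arrays were far above both CPEB2 IgG arrays. The log2 fold change was -2.70 ± 0.25 (SE) for Tuba1a (adjusted p = 0.00543), -2.27 ± 0.23 for Tuba1b (adjusted p = 0.00546) and -2.86 ± 0.23 for Tuba4a (adjusted p = 0.00543, all from limma).

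Tuba8 showed the largest change among alpha-tubulins, with signals of 420 and 273 with CPEB2 IgG against 3486 and 2030 with control IgG. The 2 antibodies differed by -2.92 ± 0.23 on the log2 scale, a 7.56-fold lower recovery (limma adjusted p = 0.00543). Tuba1c gave 186 and 137 with CPEB2 IgG against 1014 and 421 with control IgG, and its log2 fold change of -1.98 came from -2.37 in experiment 1 and -1.59 in experiment 2. For Tuba3a, a form best known from testis, the signals were 17296 and 9471 against 29572 and 28050. Its log2 fold change of -1.12 was called (limma adjusted p = 0.0413) but not without the block (adjusted p = 0.0530). Tuba3b, with 97.2 and 68.5 against 96.0 and 114, was the 1 tubulin not called, and its antibodies overlapped. The Tuba3a and Tuba3b probes share a run of 28 bases, which is shown in capitals below on mm9 because cross-hybridisation between these copies cannot be told apart from their own signal.
Tuba3a, chr6:125228312-125228341, minus strand: tCTTCCCCACCATTGGAAATAAAGGATATa
Tuba3b, chr6:145569942-145569971, plus strand: cCTTCCCCACCATTGGAAATAAAGGATATg

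All 9 beta-tubulin genes were called lower, with a median log2 fold change of -2.37 and a range from -3.73 to -1.05. The largest change in any of the 80 genes belonged to the pseudogene Tubb2a-ps2, which read 271 and 213 with CPEB2 IgG against 2881 and 3796 with control IgG. Whether its probe also reads RNA of Tubb2a was not examined. Tubb4a, the beta-tubulin typical of the adult brain, gave 660 and 595 with CPEB2 IgG against 6009 and 7691 with control IgG. The 2 antibodies differed by -3.39 ± 0.26 on the log2 scale, a 10.5-fold lower recovery (limma adjusted p = 0.00543). The Tubb4a probe begins at chr17:57220485-57220514 on the minus strand of mm9 with the 30 bases below, shown as the stretch of beta-tubulin RNA behind this value.
Tubb4a: actgtggctgctgtcttccggggacggatg

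Tubb5, a beta-tubulin of many tissues, was at 10212 and 7510 with CPEB2 IgG against 56834 and 58894 with control IgG. Tubb2a, abundant in neurons, was at 19297 and 17925 and at 98105 and 101329. Tubb2b, its close relative in developing cortex, was at 5339 and 4092 and at 21267 and 13594. Their log2 fold changes were -2.67, -2.37 and -1.81, and no CPEB2 IgG array reached a control IgG array in any of them. Tubb3, the neuron-specific beta-tubulin, gave 5725 and 8352 with CPEB2 IgG against 21314 and 19272 with control IgG, a log2 fold change of -1.50 ± 0.27 (limma adjusted p = 0.0144). Tubb4b, found in cilia among other places, gave 47014 and 30450 against 102515 and 68306 and a log2 fold change of -1.09. Tubb1, the platelet form, was dim with CPEB2 IgG, with 18 and 13.9 against 112 and 105. In Tubb6 the experiments differed more than the antibodies, with 280 and 541 in experiment 1 and 53.5 and 129 in experiment 2. Its call (log2 fold change -1.05, limma adjusted p = 0.0275) rested on the block, since the fit without it gave an adjusted p of 0.459.

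Both gamma-tubulins, which sit in the nucleating ring complex, were lower. Tubg1 gave 717 and 590 with CPEB2 IgG against 3898 and 3905 with control IgG (log2 fold change -2.53 ± 0.24, limma adjusted p = 0.00543). Tubg2 gave 3748 and 3012 against 8165 and 7409 and changed less, with a log2 fold change of -1.16. Of the 18 tubulins, limma called 17 lower (94.4%, beside 20.4% of all genes) and 0 higher (beside 21.2%). In both experiments 17 of the 18 were below 0. The median log2 fold change of the 18 was -2.31 in experiment 1 and -2.40 in experiment 2. With no filter on dim probes, 11 of the 18 were called lower. Lower calls over the whole array fell with that setting from 4020 of 19698 genes to 1837 of 24164.

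**Figure D2:**
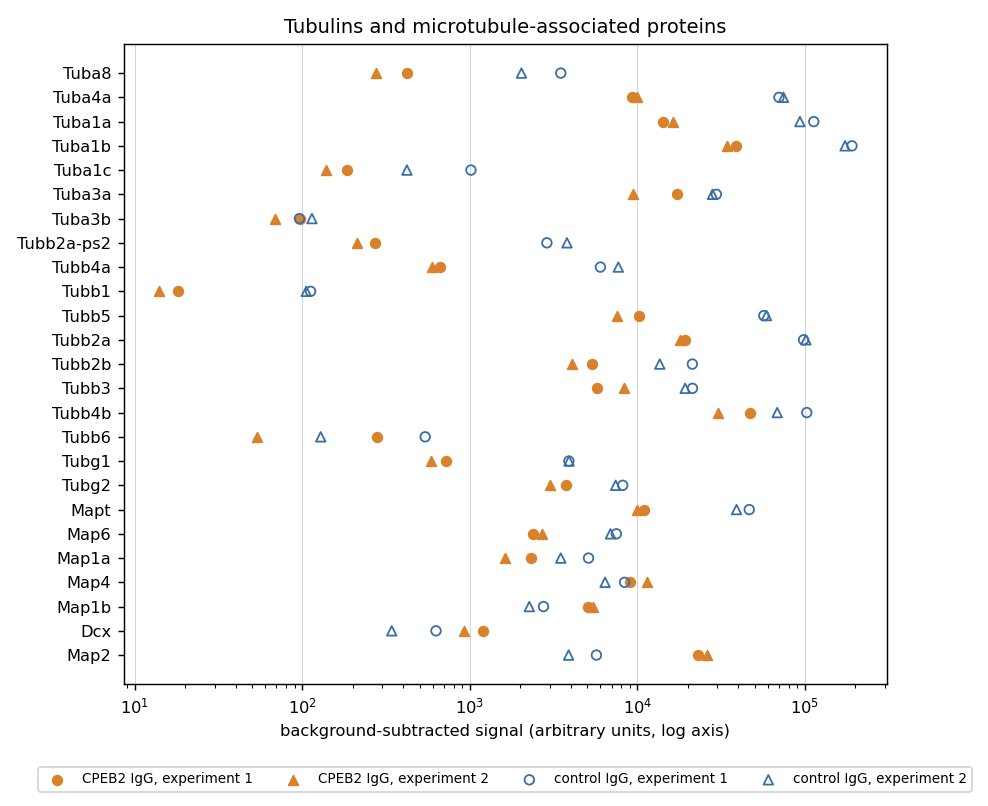
Background-subtracted signal (arbitrary units, log axis) of the brightest probe of each tubulin and MAP on the 4 arrays. Filled symbols are CPEB2 IgG, open symbols control IgG, circles experiment 1 and triangles experiment 2. In 17 of the 18 tubulins the open symbol lies to the right of the filled one of the same experiment in both experiments, whereas Map1b, Dcx and Map2 show the reverse order. Signals are compared within a gene, not between genes.

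The 7 MAPs divided into 3 called higher (42.9%, beside 21.2% of all genes), 3 called lower (42.9%, beside 20.4%) and 1 not called. Map2, the dendritic MAP, was the highest of them, with 22891 and 26055 with CPEB2 IgG against 5689 and 3884 with control IgG. The 2 antibodies differed by 2.43 ± 0.28 on the log2 scale, a 5.39-fold higher recovery (limma adjusted p = 0.00601). Map1b, which is prominent in growing axons, gave 5046 and 5437 against 2749 and 2261, with a log2 fold change of 1.12 ± 0.24 (limma adjusted p = 0.0223). Dcx, the doublecortin of migrating young neurons, gave 1202 and 921 against 627 and 341, with a log2 fold change of 1.24 ± 0.25 (limma adjusted p = 0.0191). In these 3 genes each CPEB2 IgG array was above each control IgG array.

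Mapt, which encodes tau, went the other way, with 10990 and 9945 with CPEB2 IgG against 46478 and 39030 with control IgG. The 2 antibodies differed by -1.97 ± 0.23 on the log2 scale (limma adjusted p = 0.00613), and no array of 1 antibody reached an array of the other. Map6, a stabiliser of cold-resistant microtubules, read 2376 and 2691 with CPEB2 IgG against 7483 and 6904 with control IgG (log2 fold change -1.45). Map1a, the adult relative of Map1b, read 2300 and 1621 and then 5104 and 3484 (log2 fold change -1.07). Other probes of Map6 (-0.26) and Map1a (-0.28) were not called when tested alone. Map4, which is expressed in many cell types, read 9057 and 11341 against 8377 and 6407 and was not called (log2 fold change 0.52, limma adjusted p = 0.192). At the probes used, Map2 (2.43) and Mapt (-1.97) thus lay on opposite sides of equal recovery in the same precipitates. Map1b, prominent in growing axons, was on the side of Map2 (1.12), though another Map1b probe (0.32) was not called when tested alone. The part of the compartment in these directions was not tested. Other probes of Map2 (-0.12) and Mapt (-0.83) were not called when tested alone, while a further probe of each was called in the direction given.

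Kinesin heavy chains, most of them plus-end motors, were mostly not called. Of the 31 tested of 38, 5 were higher (16.1%, beside 21.2% of all genes), 1 was lower (3.23%, beside 20.4%) and 25 were not called, with a median log2 fold change of -0.16. Kif5a, Kif5b and Kif5c encode the heavy chains of kinesin-1, the main anterograde carrier of axonal cargo. Kif5b, the broadly expressed form, gave 2528 and 5503 with CPEB2 IgG against 937 and 751 with control IgG. The mean log2 fold change of 2.21 ± 0.39 (limma adjusted p = 0.0138) came from 1.52 in experiment 1 and 2.90 in experiment 2. Another Kif5b probe, dim at 28.6 and 21.7 against 22.3 and 18.9, was not called when tested alone (0.33). The neuronal forms were not called, Kif5a at 84995 and 98908 against 84359 and 67565 (log2 fold change 0.33) and Kif5c at 13096 and 27632 against 15119 and 15775 (0.35).

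Kinesin light chains link kinesin-1 to cargo, and 3 of 4 were called lower at the probe used (75%, beside 20.4% of all genes). Klc1 gave 1213 and 1329 with CPEB2 IgG against 8790 and 11646 with control IgG, a log2 fold change of -2.94 ± 0.24 (limma adjusted p = 0.00543). Klc2 gave 5617 and 6456 against 19278 and 22201, a log2 fold change of -1.73. Klc4, also called lower, was at 981 and 773 against 2914 and 2778, and Klc3 was not called (log2 fold change -0.35). Klc1 and Klc3 were among the 14 genes with some probes called and others not when each probe was tested on its own, so these values hold for the probe used. The median was -1.69 over the 4 light chains and 0.35 over the 3 kinesin-1 heavy chains, and the difference was not tested.

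Kinesin-2, which works in cilia and in dendritic and axonal transport, held no gene called at its brightest probe. Kif3a read 5019 and 5008 with CPEB2 IgG against 5344 and 6134 with control IgG (log2 fold change -0.14). Kif3b read 328 and 314 against 471 and 461 (-0.48), and Kif3c 5655 and 5781 against 7616 and 7619 (-0.36). Kif17, a dendritic motor, read 640 and 544 against 466 and 663, with a log2 fold change of 0.14 and overlapping antibodies. Other probes of 3 of these genes were called lower when tested on their own. They were at -3.11 for Kif3a, -2.17 for Kif17 and -1.13 for Kif3b. Within kinesin-3, the carriers of synaptic vesicle precursors, Kif1a was the 1 heavy chain called lower. It gave 11362 and 8707 with CPEB2 IgG against 23845 and 21714 with control IgG (log2 fold change -1.14 ± 0.24, limma adjusted p = 0.0213). Kif1b, its relative, gave 6037 and 7443 against 9705 and 9890 and was not called (-0.49, adjusted p = 0.157). The kinesin-4 members Kif21a (-0.56) and Kif21b (-0.39) were not called either.

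Kif2a, a kinesin-13 that shortens microtubules instead of walking on them, gave 1422 and 1487 with CPEB2 IgG against 927 and 664 with control IgG. The mean log2 fold change of 0.94 was close to the threshold (limma adjusted p = 0.0412). Among kinesins named for division, Kif11 gave 134 and 136 against 34.8 and 27.7, and Kif23 gave 47.7 and 68.9 against 12.6 and 8.22. Kif11, which slides spindle microtubules, had a log2 fold change of 2.17 ± 0.24 (limma adjusted p = 0.00576). Kif23, a motor of the cytokinetic midzone, was not well above background on either control IgG array, so its recovery was at least 4.55-fold higher with CPEB2 IgG. It passed the filter only through the antibody where it was high, so its call is no independent support. Kif20a, another motor of cytokinesis, was dim, at 27.7 and 27.3 against 52.5 and 45.2, and was not called (adjusted p = 0.0542). Of the 3 tested markers of dividing cells, Mki67 was called lower (log2 fold change -1.16), Cdk1 was at least 2.85-fold lower and Ccnb1 was not called. Cdk1 passed the filter only through control IgG, where it was high, so its value is no independent support. These markers were dim, with summed signals of 137 to 225 with CPEB2 IgG and 232 to 272 with control IgG. The part of dividing cells in these kinesins was not tested. Kif26a, which has lost motor activity, gave 623 and 644 with CPEB2 IgG against 295 and 206 with control IgG (log2 fold change 1.42 ± 0.26, limma adjusted p = 0.0145).

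The other kinesins tested were Kif1c, Kif6, Kif7, Kif9, Kif13a, Kif13b, Kif14, Kif16b, Kif19a, Kif20b, Kif22, Kif24, Kif26b, Kif27 and the pseudogene Kif4-ps. At their brightest probes they were not called, with log2 fold changes from -1.23 for Kif6 to 0.77 for Kif13a. Another Kif26b probe was called lower when tested on its own (-1.17). At its brightest probe Kif6 changed in 1 experiment only, at 210 against 1193 in experiment 1 and 99.6 against 103 in experiment 2. Other Kif6 probes were at -0.22 and -0.95 and were not called when tested alone. In experiments 1 and 2 the latter probe gave -1.09 and -0.81. Kif13b and Kif27 were not well above background on either CPEB2 IgG array. The 7 genes not tested were Kif2b, Kif2c, Kif4, Kif12, Kif15, Kif18a and Kif18b. Their signals lay between 3.43 and 34.4, and none was well above background on more than 1 array.

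Cytoplasmic dynein, the minus-end motor, and its activator dynactin were mostly lower. Cytoplasmic dynein, dynein light chains and dynactin had 12 of 20 genes lower (60%, beside 20.4% of all genes) and 0 higher (beside 21.2%). Their median log2 fold change was -0.97. Dync1h1, the motor heavy chain, gave 1320 and 1272 with CPEB2 IgG against 4579 and 4327 with control IgG (log2 fold change -1.73 ± 0.23, limma adjusted p = 0.00729). The neuronal intermediate chain Dync1i1 gave 3251 and 3827 against 9963 and 9196 (-1.39), and the light intermediate chain Dync1li1 gave 217 and 188 against 631 and 688 (-1.65). The other intermediate and light intermediate chain genes were not called. Dync1i2 was at 16956 and 15550 against 14841 and 14898 (0.18), and Dync1li2 at 1146 and 1334 against 1099 and 839 (0.42).

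Dynactin, which tethers dynein to cargo, had 5 of its 6 genes lower (83.3%, beside 20.4% of all genes). Dctn2, the dynamitin subunit, gave 555 and 568 with CPEB2 IgG against 6908 and 8250 with control IgG. The mean log2 fold change of -3.70 ± 0.24, a 13-fold lower recovery (limma adjusted p = 0.00543), was the second largest of the 80 genes. Dctn1, the p150 arm that binds microtubules, gave 4995 and 2887 against 26605 and 27032 (-2.77 ± 0.31, limma adjusted p = 0.00581). Dctn3, Dctn5 and Dctn6 were also lower, with log2 fold changes of -2.40, -1.45 and -1.28, while Dctn4 was not called (0.49). In Dctn4 both CPEB2 IgG signals (4491 and 6592) were above both control IgG signals (4124 and 3892).

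Dynein light chains, several of which also serve outside dynein, had 3 of 7 genes lower (42.9%, beside 20.4% of all genes). Their median was -0.80. Dynll1 gave 508 and 642 with CPEB2 IgG against 1058 and 1016 with control IgG, just outside the threshold (log2 fold change -0.81, limma adjusted p = 0.0537). Dynll2, its close relative, gave 22863 and 39154 against 26707 and 28639, a log2 fold change of 0.17 with overlapping antibodies. Those called were Dynlrb1 (-1.43), Dynlt1f (-0.92, limma adjusted p = 0.0439) and Dynlt1c (-0.80, limma adjusted p = 0.0487). Neither Dynlt1f nor Dynlt1c was called when each probe was tested on its own. Dynlt1c and Dynlt1f are near-identical copies, so their signals may be shared. In the dynein that serves cilia, Dync2li1 was lower (-1.02) and Dync2h1 was not called (-0.18).

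**Figure D3:**
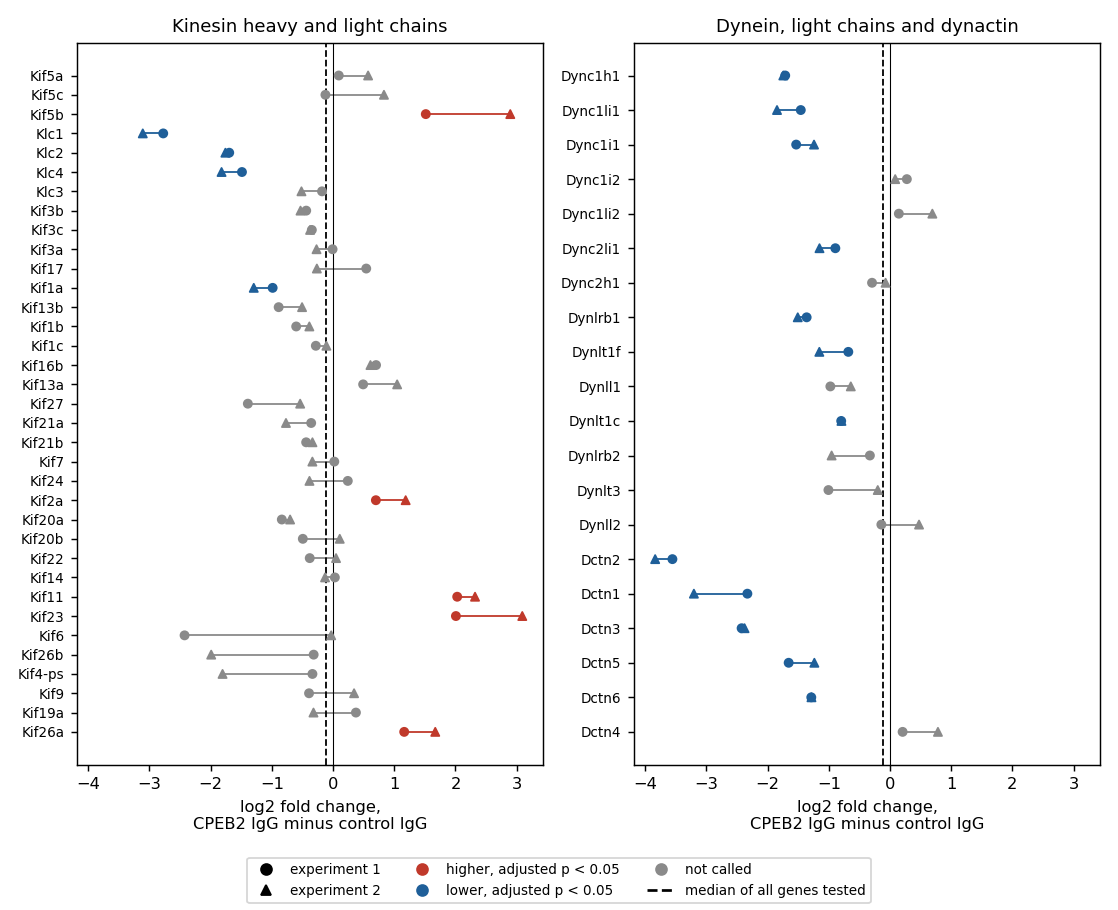
Log2 fold change (CPEB2 IgG minus control IgG) of each tested motor gene in experiment 1 (circles) and experiment 2 (triangles), kinesin heavy and light chains on the left and dynein, its light chains and dynactin on the right. The line joins the 2 experiments, colours give limma's call at 0.05 and the dashed line is the median of all genes tested. Long lines, as in Kif6 (-2.43 and -0.03), mark genes whose experiments differed at the probe used.

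Tubulins were set against motors as the selection asked. The median log2 fold change was -2.32 over the 18 tubulins and -0.48 over the 55 motor genes tested, a difference of -1.83. The difference of medians was -1.93 in experiment 1 and -2.01 in experiment 2. Among the motor genes, 16 were called lower (29.1%) and 5 higher (9.09%). The shares were 94.4% and 0 for the tubulins and 20.4% and 21.2% for all genes tested. The probes also differed in base composition, with a median GC content of 43.3% for tubulins and 38.3% for motors. Across the 80 genes GC content and log2 fold change had a Spearman rho of -0.37, the same as across all 19698 genes (-0.37), a description over probes that share the 4 arrays. When arrays were centred in bins of GC content, the difference of medians was -1.67. The motor genes came from 62 listed, of which 7 were too dim to test, and 3 were tested through 1 antibody only.

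Of the study's 3 criteria for a CPEB2 target, the CPE in the 3'-untranslated region was not analysed here. The others, taken as a fold change over 1.5 in the mean and an unscaled signal over 1000 on either CPEB2 IgG array, carry no test. They were met by 6 microtubule genes, namely Map2, Dcx, Map1b, Kif5b, Kif2a and Kif13a. That was 13.6% of the 44 genes of the selection with such a signal, beside 47.7% of the 7033 genes of the whole array with such a signal. With the antibodies exchanged, 36 of 50 genes passed (72.0%), beside 41.3% of 6703 genes, and 15 of those 36 were tubulins. A single probe past the thresholds was enough for a gene to count.

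For several genes the probe decided the value. Of the 31 genes with more than 1 probe tested, 12 differed by over 1 on the log2 scale between their probes. When each probe was tested on its own, 46 of 118 probes of the selection were called lower and 10 higher, beside 14.8% and 12.7% of all probes. No gene had probes called in opposite directions, 14 had some probes called and others not, 8 had 1 call for all their probes and 9 had no probe called. The 2 probes of Tuba1a had log2 fold changes of -2.70 and -2.71, although the second is placed on chromosome 12 by the array's annotation and the gene on chromosome 15 by RefSeq.

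Probes of Kif3a, Map2 and Mapt are given here because in these genes the fold change differed between probes. The array annotation assigns the upstream Map2 probe to another transcript than the downstream one. The parts of position, transcript and GC content in these differences were not tested. Each line is the first 30 bases of a probe on the plus strand of mm9.
Kif3a, upstream, chr11:53397887-53397916: gatgctctgctccgccagtttcagaaagaa
Kif3a, downstream, chr11:53415270-53415299: acacacacattctaaaacattccctggaca
Map2, upstream, chr1:66463380-66463409: aaacctgctatcaaatacactagaccaact
Map2, downstream, chr1:66488543-66488572: acacagatgtggggtagaagagagatataa
Mapt, upstream, chr11:104189430-104189459: atggtggactcaccacagcttgccacacta
Mapt, downstream, chr11:104193241-104193270: atgatttctttggtgattttgagggtgggg

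The upstream Kif3a probe gave 788 and 861 with CPEB2 IgG against 7603 and 7121 with control IgG, a log2 fold change of -3.11 (limma adjusted p = 0.00678 over all probes), beside -0.14 for the downstream probe that stood for the gene. Map2 was not called at its upstream probe, at 277 and 216 against 312 and 245 (-0.12), and was higher at both downstream probes (2.43 and 2.17). Mapt had -2.21 at its most upstream probe and -0.83 at its most downstream one. Kif2a, whose gene-level value was called higher, had probes at -1.08, 0.94 and 0.46, none of them called when tested alone. Kif26a had -1.38 upstream, on a dim probe, and 1.42 downstream.

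Probe order along the genome, not along a transcript, was compared in the 24 genes with probes at least 100 bases apart on 1 strand. The most downstream probe had the higher fold change in both experiments in 15 of the 24 (62.5%), the lower one in both in 5, and the experiments differed in 4. Over all 5017 genes with such probes the downstream probe was higher in both experiments in 61.3%, so the share in microtubule genes was near that of the array. The median difference, downstream minus upstream, was 0.80 on the log2 scale in the 24 genes and 0.55 in the 5017. The downstream probe had the lower GC content in 17 of the 24, and its part in the difference was not tested. Map6 and Kif1b ran the other way, with differences of -1.20 and -1.28. In each of these genes the array annotation assigns the probes to different transcripts, so they may not read the same RNA.

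**Figure D4:**
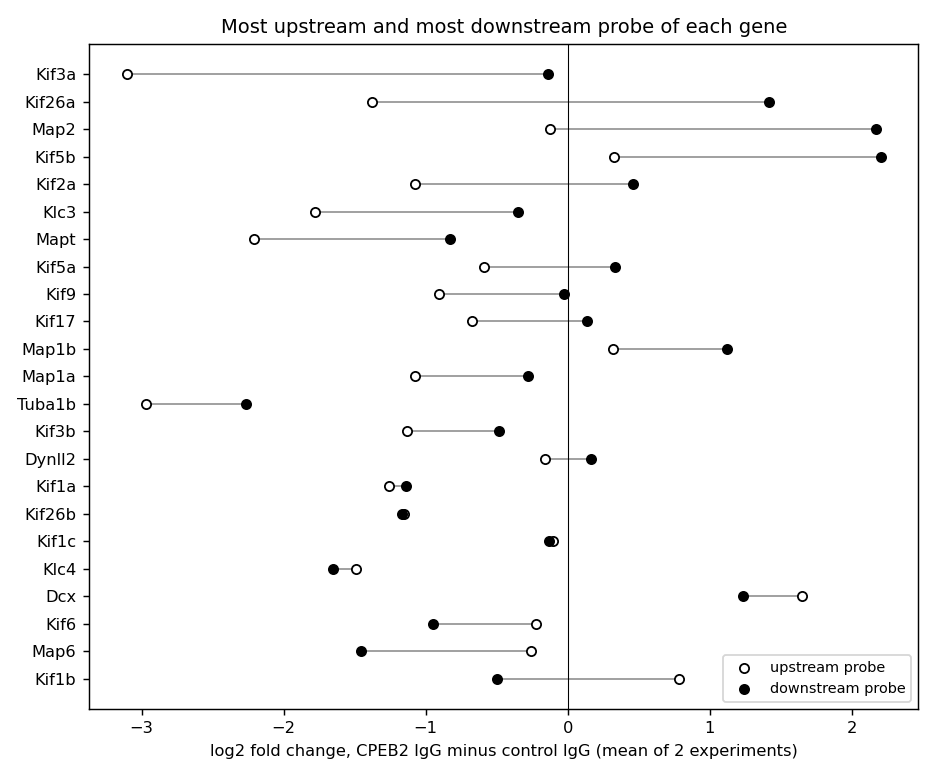
Log2 fold change (CPEB2 IgG minus control IgG, mean of 2 experiments) of the most upstream probe (open) and the most downstream probe (filled) of genes with probes at least 100 bases apart, 1 of the 24 not shown. Kif3a lies at -3.11 upstream and -0.14 downstream, and Kif1b, in the other direction, at 0.78 and -0.49.

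The CPE was searched in the probes as TTTTAT or TTTTAAT, on the strand as listed. It stood in 3 of the 132 probes of the selection (2.27%) and in 4.54% of all 55615 probes kept. On the opposite strand it stood in 13 probes (9.85%), beside 6.51% of all probes. The 3 probes are shown because they place the motif within a measured stretch, with the CPE in capitals, all on the minus strand of mm9.
Dynll2, chr11:87793189-87793218: tttgattttaggTTTTATttttcttatgaa
Map1b, chr13:100194427-100194456: ttgcattggctaTTTTAATtttccattaat
Kif2a, chr13:107751370-107751399: gaggagTTTTATtttaggataatacatata

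Their log2 fold changes were 0.17 for Dynll2, 0.32 for this Map1b probe and 0.46 for this Kif2a probe, none of them called when each probe was tested on its own. A probe covers 60 bases of an mRNA, and the rest of each transcript was not searched.

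Other genes of the pathway, from lists outside the selection, had a median nearer that of the array. Of 102 further genes on the array, 100 were tested, 16 were called higher and 27 lower, beside 21.2% and 20.4% of all genes, with a median log2 fold change of -0.19. Tubulin folding and modification had 10 of 31 lower and 5 higher, led by Tbcc, a tubulin-folding cofactor, at 988 and 1100 with CPEB2 IgG against 6914 and 7470 with control IgG (log2 fold change -2.73). In the same list Tubgcp3, a partner of gamma-tubulin in the ring complex, was higher, at 6404 and 9323 against 1131 and 1387 (2.68). Tube1, epsilon-tubulin of the centriole, was also higher, at 557 and 592 against 136 and 117 (2.24).

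Genes of microtubule dynamics had 8 of 35 lower and 5 higher, and motor adaptors and regulators 7 of 29 lower and 5 higher, beside 20.4% and 21.2% of all genes, so neither count is a result about the list. Macf1, a very large linker of actin and microtubules, gave 12916 and 14712 with CPEB2 IgG against 1968 and 1783 with control IgG, a log2 fold change of 2.93. Stmn3, a tubulin-binding stathmin of neurons, gave 8594 and 8168 against 53281 and 57961 (-2.68). The median of the motor adaptors was 0.03. Further MAPs had 2 of 5 lower and 1 higher, and Map1s, a small relative of Map1a and Map1b, gave 517 and 501 against 3559 and 4417 (-2.91). The 6 genes named here from these lists had limma adjusted p-values of at most 0.00562.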

How the data were processed

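RNA recovered with CPEB2 IgG or control IgG was measured on 4 one-color Agilent arrays (SurePrint G3 Mouse GE), all on 1 slide. The authors deposited scanner output of Agilent Feature Extraction, in which each spot has an intensity corrected for background by that software and not scaled between arrays. Flags for uneven spots, outliers and background came with them. Coordinates come from the array's own mm9 annotation.

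Control spots and marked spots were left out, repeated probes were averaged on the log2 scale and 66 probes without a value on every array were dropped, leaving 55615. The 75th percentile of an array set its scale. Each gene was represented by its brightest probe among those well above background on at least 2 of the 4 arrays. The model (limma 3.58.1, R 4.3.3) held antibody and experiment, and Benjamini-Hochberg adjustment ran over 19698 genes. It left 1 residual degree of freedom, and the number of arrays limits the precision. The pairing comes from the division of each lysate in the study's methods, and same-numbered arrays deviated together (correlation 0.20).

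The genes, the lists and the rule for named genes were chosen with earlier results of these data known. That rule takes every tubulin and MAP of the selection, the main neuronal kinesins with Klc1 and Klc2, Kif11, Kif20a and Kif23, subunits of dynein 1, Dynll1, Dynll2 and Dctn1, the 5 largest calls in each direction and the 3 largest in each direction of the wider pathway. Klc3, Klc4, Dync2li1, Dync2h1, Dynlrb1, Dynlt1c, Dynlt1f, Dctn3 to Dctn6 and the remaining kinesins fall outside it and were described after their values were seen. The symbols of all 87 genes were found in RefSeq (GRCm38.p6). Other scalings, a background correction by normexp with an offset of 50, other filters and thresholds, other uses of probes, the fit without the block and each array or pair left out were tried. Python 3.11.15 with pandas 2.3.3, numpy 2.4.6, scipy 1.17.1 and matplotlib 3.10.9 was used for the rest. The result of 1 further probe is not reported here.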

Additional observations from a re-analysis of the deposited data

How the results depend on the processing

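The precision is limited by 4 arrays with 1 residual degree of freedom, and low signals such as those of Kif23 lie near background. Calls over all genes moved with the setting too. Genes called lower numbered 4020 of 19698 in the main fit, 1837 of 24164 with no filter on dim probes and 4681 with an intensity trend. Those called higher numbered 4174, 2265 and 4923. Members called lower numbered 36, 24 with no filter on dim probes and 42 with an intensity trend at the extremes, and 27 to 35 with an array left out. Members called higher numbered 8, but 2 with no filter on dim probes and 5 with the mean of the probes of a gene, and 4 to 8 with an array left out (5 without CPEB2 IgG replicate 2 and 4 without control IgG replicate 2). Without the replicate block the counts were again 8 and 36, of which 8 and 33 were the same genes, and 14 tubulins stayed lower. Tuba3a (adjusted p = 0.0530), Tubb4b (0.0504) and Tubb6 (0.459) lost their call without the block, and Dynll1 (0.0391) and Kif20a (0.0332) gained one. With an array left out, 24 of the 36 named members called stayed called whichever array it was, and Tubb6 and Kif2a were called in none of the 4 cases. All fits with an array left out also held no block, so the loss of the array and of the pairing cannot be told apart there. Tubb6 reversed to 0.14 without CPEB2 IgG replicate 2, with -0.05 without control IgG replicate 1. Paired within experiments 1 and 2, Tubb6 was at -0.87 and -1.24. Tuba3a, Tubb4b and Dcx lost their call in 3 cases, Tuba1c, Tubg2, Map1a, Kif1a and Kif26a in 2, and Tubb2b and Map1b in 1, each keeping its direction.

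The median log2 fold change of tubulins was -2.11 with quantile normalization, -2.09 with median centring, -2.43 with the percentile over probes detected on all 4 arrays, -2.18 with centring in GC bins, -2.05 with normexp and -2.45 with the mean of the probes, and -2.41 to -2.25 with an array or pair left out. That of motors was -0.47 with quantile normalization, -0.26 with median centring, -0.54 with no scaling, -0.59 with the percentile over probes detected on all 4 arrays, -0.51 with GC bins, -0.32 with normexp, -0.48 with marked spots kept, -0.35 with no filter, -0.39 with probes above background on all 4 arrays, -0.64 with the mean of the probes and -0.59 over single probes, and -0.44 to -0.36 with an array or pair left out. Median centring raised every value by moving the median of all genes from -0.11 to 0.11, and the share of higher among all calls from 50.9% to 61.2%. Tubulins minus motors was -1.64 with quantile normalization, -1.67 with GC bins, -1.73 with normexp, -1.97 with no filter and -1.68 over single probes, and -2.03 to -1.84 with an array or pair left out. Past the fold and signal thresholds of the study were 3 members at a raw signal above 2000 and 4 to 9 under the other settings. A pair left out leaves no test, so no count of calls was made there, and the cause of the differences was not tested.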
